A study of Mus musculus with 9 samples.

Results

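The cytosolic ribosomal protein genes encode the proteins that, with the ribosomal RNAs, build the small (40S) and large (60S) subunits of the ribosome of the cytosol. Members were the gene identifiers whose symbol is annotated as protein-coding and begins with Rpl or Rps plus a digit, or is Rpsa, Rplp0, Rplp1 or Rplp2, without the Rps6k kinases and symbols marked as pseudogenes. This gave 86 of the 55357 identifiers in the table, of which 52 belonged to the large and 34 to the small subunit by name. The rule also takes Rps19bp1, which encodes a protein that binds Rps19 and is no subunit of the ribosome, and it leaves out genes that encode ribosomal components under other names, among them Fau and Rack1. A ribosome holds its proteins in fixed proportion, and their genes are among the most highly expressed of a growing cell. Their mRNAs begin with a cytosine and a run of pyrimidines, the 5′ terminal oligopyrimidine (TOP) motif, through which mTOR signalling and Larp1 set how strongly they are translated. In epidermis, reduced dosage of single members, among them Rps6, Rps19 and Rps20, is known for darkened skin and for activation of p53.

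The 9 poly(A) RNA-seq libraries came from 3 keratinocyte populations sorted from back skin of TNC-CREER; tdTomato mice on a C57BL/6 background at postnatal day 60. All groups shared this genotype and had received tamoxifen at 100 µg per g body weight on postnatal days 51 and 52, so a cell that used the Tnc-driven, inducible Cre at that time carries the tdTomato label. Touchdome cells, from the patches of epidermis around Merkel cells, were positive for EPCAM, integrin α6, SCA1 and tdTomato. IFE (interfollicular epidermis) cells had the same surface markers without tdTomato, and HF (hair follicle) cells were positive for EPCAM and integrin α6 but negative for SCA1 and tdTomato. Each group had 3 libraries, and the labels leave unsaid whether these were separate animals. The p-values therefore describe how these libraries spread, which may be technical. The reporter marks cells by Tnc-driven recombination, so Tnc-expressing cells that did not recombine would fall in the IFE gate.

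Total expected counts ran from 9295059 to 28249763 per library. As a check of the labels, 12 of 13 genes of a follicle marker list were higher in HF than in IFE and 0 were lower (edgeR, adjusted p under 0.05). Touchdome had 5 of the 13 (Krt17, Krt24, Fgf18, Lhx2 and Cd34) higher than IFE and 0 lower, beside 1.22% and 0.0798% of all genes. Against HF it had 0 higher and 11 lower. The part of follicle-type cells in the Touchdome values was not tested. IFE replicate 2 stood apart from the other IFE libraries, with a chi-square per degree of freedom over genes of 69.2 and 64.4 against IFE replicates 1 and 3, where those differed from each other by 19.7. It also had the highest share of mitochondrial gene counts, above the 1.85% to 2.33% of the other 8 libraries, and the highest share of the most abundant identifier without a symbol, 2.01%. In TPM, the 13 mRNAs encoded in mitochondrial DNA summed to 52246 in this library, within the 47330 to 62984 of the other 8. Of the markers of other cell types, Atoh1, Sox2 and Chga of the 8 Merkel cell genes were at 0 in all 9 libraries. The 8 summed to 0.11 to 0.34 TPM in IFE, 1.46 to 9.99 TPM in Touchdome and 3.07 to 3.79 TPM in HF. Of the 2 that were tested, Krt8 was called higher in Touchdome and in HF than in IFE, and Piezo2 in HF than in IFE. The 8 Langerhans cell markers summed to 219 to 435 TPM in IFE, 270 to 619 TPM in Touchdome and 120 to 813 TPM in HF, the 8 melanocyte markers to 4.91 to 7.80, 9.37 to 41.4 and 59.5 to 73.5 TPM, and the 7 fibroblast markers to 0.21 to 1.62, 32.5 to 43.0 and 20.4 to 31.5 TPM. Their part in the results was not tested.

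The family is known for a pyrimidine run at the mRNA start, and a long run was found near the annotated start in fewer than all of these genes. Whether the annotated starts are those used in these cells was not tested, so a member without a run here may still have a TOP mRNA. A few starts, mostly ones with long runs, are printed here so that the values can be read beside them. RefSeq promoter entries, of 250 bases before and 50 after the annotated start (build GRCm38.p6), were found for 66 of the 86 members. Within 20 bases of the start on the sense strand, 30 of the 66 members held a run of at least 8 pyrimidines, which is 45.5%, against 18.4% of all 27025 genes with an entry. A purine run of that length was found in 7.58% of members and 20.2% of all genes. Each of the following windows has 15 bases before the start and 15 from the start on, read 5′ to 3′ on the gene's own strand, with the longest pyrimidine run in capitals. The first 8 hold runs of at least 9 bases, and Rplp0 and Rpl36al, which are among the genes named in the results below, hold runs of 5.
Rps6, chr4:86857353-86857382, minus strand: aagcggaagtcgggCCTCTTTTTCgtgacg
Rps10, chr17:27635230-27635259, minus strand: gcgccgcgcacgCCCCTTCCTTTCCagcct
Rpl27a, chr7:109519180-109519209, plus strand: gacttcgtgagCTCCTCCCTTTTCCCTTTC
Rpl38, chr11:114668565-114668594, plus strand: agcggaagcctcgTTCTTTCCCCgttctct
Rplp2, chr7:141447636-141447665, plus strand: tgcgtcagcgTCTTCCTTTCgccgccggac
Rps9, chr7:3704026-3704055, plus strand: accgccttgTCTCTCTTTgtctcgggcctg
Rps26, chr10:128626492-128626521, minus strand: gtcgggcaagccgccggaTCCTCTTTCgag
Rps27, chr3:90213634-90213663, minus strand: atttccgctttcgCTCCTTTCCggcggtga
Rplp0, chr5:115559452-115559481, plus strand: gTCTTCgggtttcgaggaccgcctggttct
Rpl36al, chr12:69184053-69184082, minus strand: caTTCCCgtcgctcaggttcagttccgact

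Around the start, the letters CGGAAG, the core of sites for ETS family factors, were searched on both strands of the 300-base entries and occurred in 44 of 66 members (66.7%) against 18.8% of all genes. GGGCGG, the GC box, which can share its CGG with that core, occurred in 62.1% of members against 38.2% of all genes. CTTTCC, a string of pyrimidines, occurred in 54.5% against 29.3%. It was counted on both strands anywhere in the entry, so it does not measure the TOP motif, which lies at the start of the mRNA. TGACGTCA, the cAMP response element, occurred in 7.58% against 2.03%, and AAGATGGC, a YY1-type motif whose AAG can overlap the ETS-type core, in 9.09% against 3.19%. TATAAA, the TATA box, occurred in 10.6% of members against 15.7% of all genes, and CACGTG, the E-box that Myc can bind, in 9.09% against 8.09%. The 100 bases before the start are shown for 5 members that differ in these letters, with matches to any of the 7 motifs in capitals. Rps6 held 3 ETS-type matches, Rpl38 held 2 beside a GC box, Rpl36al held 3 GC boxes, Rps9 held a cAMP response element and a CTTTCC, and Rplp0 held no match in this window. A match is a description of letters and not of binding.
Rps6, chr4:86857368-86857467, minus strand: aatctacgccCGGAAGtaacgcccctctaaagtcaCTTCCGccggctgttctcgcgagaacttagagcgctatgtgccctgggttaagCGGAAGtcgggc
Rpl38, chr11:114668480-114668579, plus strand: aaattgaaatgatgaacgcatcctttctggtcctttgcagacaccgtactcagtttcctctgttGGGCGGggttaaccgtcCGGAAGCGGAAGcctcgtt
Rpl36al, chr12:69184068-69184167, minus strand: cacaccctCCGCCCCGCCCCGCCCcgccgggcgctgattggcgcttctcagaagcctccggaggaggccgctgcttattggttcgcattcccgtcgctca
Rps9, chr7:3703941-3704040, plus strand: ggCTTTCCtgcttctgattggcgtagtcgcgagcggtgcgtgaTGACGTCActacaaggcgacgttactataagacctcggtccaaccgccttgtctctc
Rplp0, chr5:115559367-115559466, plus strand: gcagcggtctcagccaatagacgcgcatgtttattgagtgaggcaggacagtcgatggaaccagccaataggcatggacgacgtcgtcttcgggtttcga

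Ribosomal protein genes were among the most abundant transcripts of all 3 populations. On the TPM scale, which is per length and has the same sum in each library, 45 members were among the 100 identifiers with the highest mean, and 68 members had a mean above 1000 TPM. The median over the 83 members tested was 1656 TPM. Rplp1, which encodes a protein of the acidic stalk that recruits elongation factors, had the highest mean at 4942 TPM, and Rps15 averaged 4113 TPM. The lowest among tested members were Rps19bp1 at 32.2 TPM, Rpl7l1 at 61.4 TPM and Rps27l at 117 TPM. The 3 members that did not pass the filter on low counts were the tissue-restricted paralogs Rpl3l and Rpl10l, with 0 counts in every library, and Rpl39l, with 2 counts in all. By counting error alone, 0 counts still allowed a level of up to 0.114 CPM where the library was deepest and up to 0.316 CPM where it was shallowest.

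Together the 86 members took 4.40%, 6.37% and 5.12% of the expected counts in IFE replicates 1 to 3, 5.002%, 4.78% and 4.45% in Touchdome, and 3.81%, 3.79% and 4.17% in HF. All HF libraries thus lay below all IFE and Touchdome libraries, and IFE replicate 1 lay below the 3 Touchdome libraries. With 3 libraries against 3, an exact two-sided permutation test cannot go below 0.10. As shares of the TPM total, the same genes took 16.1 ± 1.93% in IFE, 14.9 ± 0.689% in Touchdome and 13.1 ± 0.509% in HF (SD, n = 3 each), in the same order. The lowest IFE library, at 14.3%, was above the highest HF library, at 13.7%, by less than the SD within IFE. The ratio of large to small subunit TPM was 1.31 ± 0.0374 in IFE, 1.34 ± 0.0277 in Touchdome and 1.35 ± 0.0310 in HF, with overlapping libraries. Near-identical pseudogenes could take reads from the members. The 301 identifiers annotated as pseudogenes of these names held 0.0359% to 0.0568% of counts. Pseudogenes under other names were not counted, and the exchange of reads between pseudogenes and members was not tested.

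**Figure D1:**
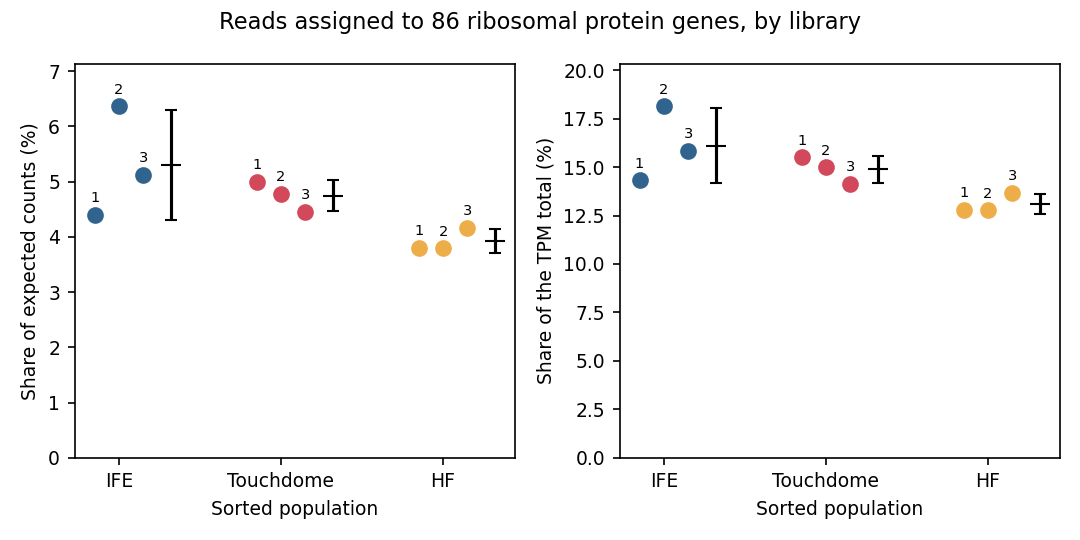
Share of expected counts (left, %) and of the TPM total (right, %) in the 86 ribosomal protein genes, by sorted population. Points are libraries with their replicate number and the cross with bars is the mean ± SD of 3 libraries; HF lies at 3.79% to 4.17% of counts, below the other 2 populations, and IFE replicate 2 stands highest at 6.37%.

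HF was compared with IFE to ask how follicle keratinocytes differ from those of the epidermis between follicles. Ribosomal protein genes were lower in HF nearly throughout: 69 of the 83 tested members passed the test (83.1%, against 16.0% of all 15046 genes called lower), and 0 were higher (17.1% of all genes), where DESeq2 and an unadjusted p under 0.05 also gave 0 higher. The test was the quasi-likelihood test of edgeR with Benjamini-Hochberg adjusted p under 0.05 over all genes tested. The median log2 fold change was -0.52, a level 0.696 times that of IFE, where the median over all genes was 0.00. Members ranged from -0.99 to -0.02, and all 83 were below 0, as were 81 of 83 with limma on log2(TPM + 1) and 71 with a length trend removed. In 67 members all 3 HF libraries were lower than all 3 IFE libraries, as in 23.1% of all genes. Of the large subunit 40 of 49 members fell, with a median of -0.50, and of the small subunit 29 of 34, with a median of -0.57. Since these are bulk samples, fewer cells of a type and less RNA per cell cannot be told apart.

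Rplp0 and Rplp1, of the stalk of the large subunit, had the greatest differences. Rplp0 (ENSMUSG00000067274), which encodes the stalk base and is often used as a reference gene for qPCR, stood at 2376, 3130 and 2850 CPM in IFE, 2336, 2267 and 2029 CPM in Touchdome, and in HF at 1318, 1428 and 1468 CPM. The 3 groups did not overlap, with IFE highest and HF lowest. HF stood below IFE by -0.99 ± 0.14 on the log2 scale (fold change ± SE, edgeR adjusted p = 0.000125). Rplp1 (ENSMUSG00000007892) stood at 888, 1269 and 1185 CPM in IFE, 940, 865 and 728 CPM in Touchdome, and in HF at 596, 587 and 665 CPM, so HF lay below both other groups while IFE and Touchdome overlapped. The log2 fold change between HF and IFE was -0.85 ± 0.15 for Rplp1 (edgeR adjusted p = 0.000845). Rplp2, the partner of Rplp1 in the stalk, fell by 0.48 ± 0.14 (adjusted p = 0.0181), and this call was lost without IFE replicate 3 or HF replicate 2, at -0.47 and -0.44. The call was also lost with limma on log2(TPM + 1) or log2(TPM + 0.1), and with a length trend removed.

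Among small subunit genes, Rps9, Rps12 and Rps20 had the smallest p. Rps12 (ENSMUSG00000061983) stood at 599, 972 and 840 CPM in IFE, 614, 593 and 497 CPM in Touchdome and 422, 378 and 540 CPM in HF. HF lay below IFE in every library, with HF replicate 3 closest, and the log2 difference was -0.85 ± 0.18 (edgeR adjusted p = 0.00338). Rps20 (ENSMUSG00000028234), which encodes a protein of the subunit's head, stood at 414, 599 and 527 CPM in IFE and 299, 262 and 370 CPM in HF, a log2 fold change of -0.72 ± 0.16 (adjusted p = 0.00363). Rps9 (ENSMUSG00000006333), whose start window above holds a run of 9 pyrimidines, stood at 898, 1181 and 1040 CPM in IFE and 686, 636 and 702 CPM in HF, and fell by 0.62 ± 0.13 (adjusted p = 0.00243). Rpl36al (ENSMUSG00000049751), a large subunit gene and autosomal paralog of the X-linked Rpl36a, stood at 95.6, 134 and 104 CPM in IFE and 72.2, 74.1 and 69.8 CPM in HF. It fell by 0.62 ± 0.14 (adjusted p = 0.00361). None of these groups overlapped between HF and IFE.

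The count of members lower in HF rested in part on single libraries and on the scale. It was 38 without HF replicate 1 (12.2% of all genes) and 39 without HF replicate 2 (12.6%), and 55 without IFE replicate 2 (14.7%), where the median was -0.38. Without IFE replicate 3 it was 54, where 2023 genes were lower in all, and the median was -0.53. Without IFE replicate 1 it was 79, where 2263 genes were lower in all, and the median was -0.65. Of the 69 members, 31 passed in all 9 fits that each left out a library. On the per-length scale, limma on log2(TPM + 1) called 23 members lower (8.04% of all genes), with a median of -0.28 where that of all genes was 0.19. The genes Rplp0, Rplp1, Rps2, Rps3, Rps3a1, Rps4x, Rps9, Rps12, Rps16, Rps19, Rps20, Rps26, Rpl3, Rpl12, Rpl15 and Rpl19 were among those called lower under each of 18 alternative settings, which include each library left out, DESeq2, limma on TPM and the removal of a length trend.

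**Figure D2:**
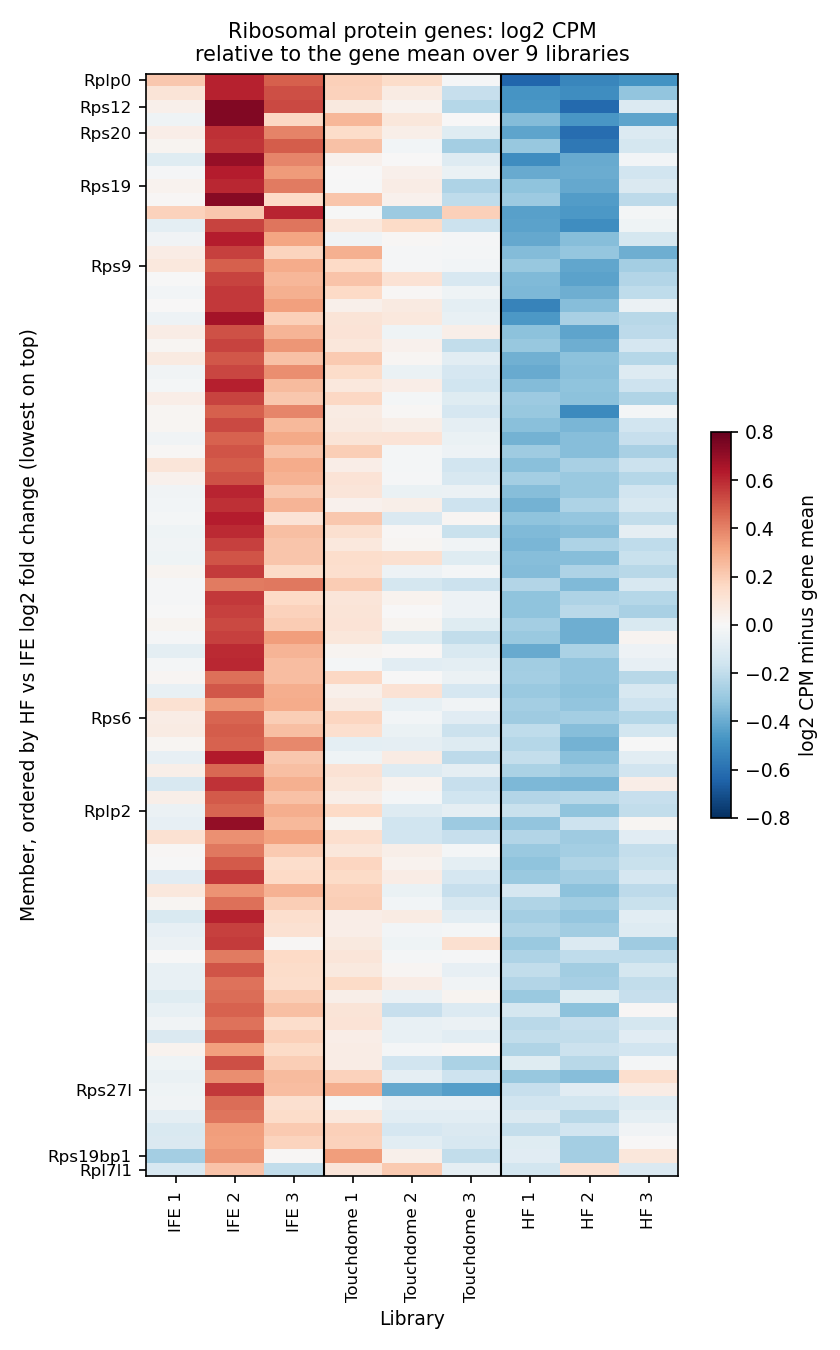
log2 CPM of the 83 tested members in each library minus the gene's mean over 9 libraries (colour scale, log2 units), with members in rows ordered by the HF against IFE fold change and libraries in columns; some rows carry their symbol. HF columns are mostly below and IFE replicates 2 and 3 above the gene mean, and IFE replicate 2 is the highest library for 81 of 83 members.

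Gene length moved with these differences. Ribosomal protein mRNAs are short: the median relative effective length of the 83 tested members, with 1 as the median gene, was 0.233, against 1.01 for the other tested genes, and 80 members fell within the shortest of 5 length classes of equal size. Among genes outside the set, the median log2 fold change of HF against IFE ran from -0.20 in the shortest class over -0.07, -0.01 and 0.06 to 0.19 in the longest. With this trend removed, 22 of 83 members were lower in HF (14.4% of all genes), with a median of -0.18 against 0.07 for all genes, and 12 members were above 0. Rplp2, Rps6, Rpl24, Rpl22l1 and Rpl36al were among the members that no longer passed. Within the set, the longest member, Rpl7l1, with a relative length of 0.803, had the smallest difference, at -0.02 ± 0.14 (adjusted p = 0.934), while Rplp0 had the greatest difference and is longer than the median member. The source of the trend with length was not tested.

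**Figure D3:**
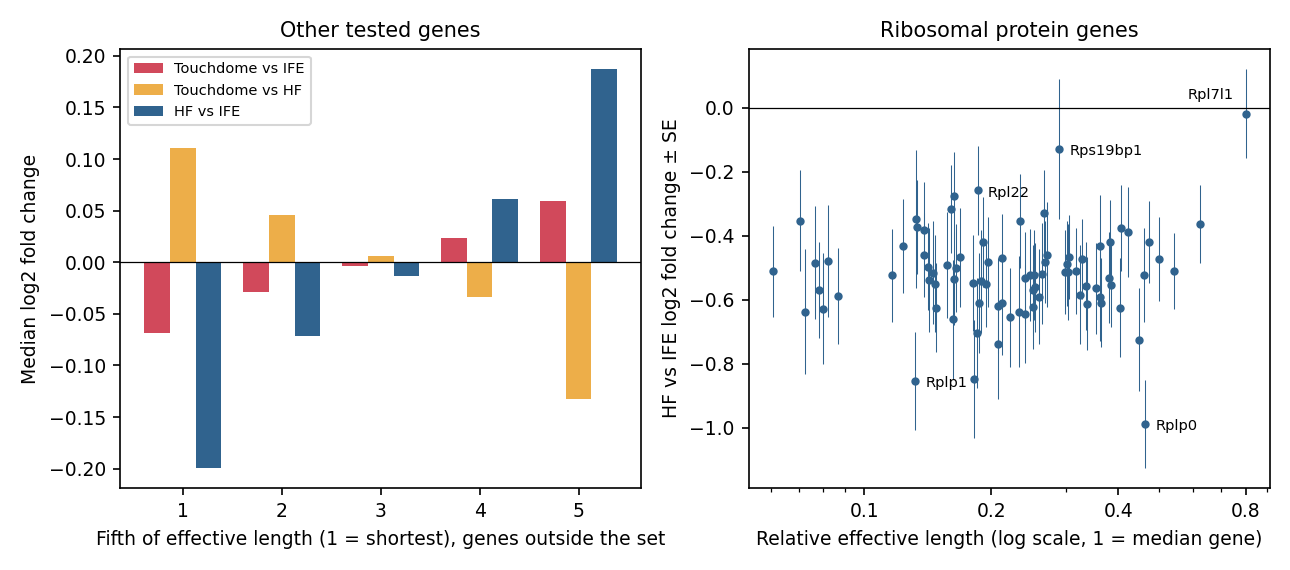
Left, median log2 fold change of tested genes outside the set in 5 classes of effective length (1 = shortest), with bars for the 3 comparisons; for HF against IFE they run from -0.20 to 0.19. Right, HF against IFE log2 fold change ± SE of each of the 83 members against relative effective length (log axis, 1 = median gene); members spread from -0.99 to -0.02.

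Members that differed from the rest of the set were sought by scaling each library to its summed ribosomal protein count, an alternative chosen after seeing the data. On this scale 1 member was called higher in HF than in IFE (38.9% of all genes, whose median moved to 0.51) and 1 lower (5.62% of all genes). Rplp0 stayed lower, by -0.46 ± 0.16 (adjusted p = 0.0317, edgeR). Rpl7l1, a paralog of Rpl7 known as a factor of large subunit assembly, was higher, by 0.52 ± 0.16 (adjusted p = 0.0230). The other 81 members did not pass, Rps19bp1 being next at 0.41 ± 0.19 (adjusted p = 0.0910). The adjustment ran over all genes, many of which this scaling shifts, so it was lenient for the members. Unadjusted p in edgeR was 0.0121 for Rplp0 and 0.00794 for Rpl7l1, and no adjustment over the members alone was made. These calls therefore do not establish that Rplp0 and Rpl7l1 differ from the rest of the set.

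The 14 members not called between HF and IFE were Rpl13, Rpl22, Rpl23, Rpl23a, Rpl35a, Rpl36, Rpl37a, Rpl38, Rpl7l1, Rps15, Rps19bp1, Rps21, Rps27a and Rps27l, with adjusted p from 0.0508 to 0.934. Rpl38, whose loss alters the patterning of the skeleton in mice, stood at 77.3, 104 and 95.6 CPM in IFE and 65.0, 63.5 and 88.0 CPM in HF. HF replicate 3 overlapped IFE, and the log2 fold change was -0.35 ± 0.16 (adjusted p = 0.106). It passed the test without HF replicate 3, at -0.52, or without IFE replicate 1, at -0.47. Of the 18 members with known loss-of-function phenotypes in skin, blood or skeleton, 16 were lower in HF with a median of -0.52, beside 69 of 83 and a median of -0.52 for the whole set, and Rpl35a and Rpl38 did not pass. Of the 18, 3 were lower with limma on log2(TPM + 1), 7 with the length trend removed and 5 without HF replicate 1. Rps19, mutated in Diamond-Blackfan anaemia and in mice with dark skin, fell by 0.64 ± 0.15 (adjusted p = 0.00586). Rps6, the substrate of the S6 kinases, fell by 0.51 ± 0.13 (adjusted p = 0.0104), and Rpl24, the gene of the Belly spot and tail mouse, by 0.47 ± 0.14 (adjusted p = 0.0177). The call of Rpl24 was lost without HF replicate 1 or 2, at -0.43 and -0.47, and also with limma on either TPM scale and with the length trend removed.

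Paralog pairs were compared on the TPM scale. Rpl22, a large subunit gene, averaged 967 TPM over the 9 libraries and its paralog Rpl22l1 averaged 141 TPM. Rpl22l1 was lower in HF by -0.64 ± 0.17 (adjusted p = 0.0128, edgeR) and Rpl22 had -0.26 ± 0.14 (adjusted p = 0.176), and the difference between the paralogs was not tested. The call of Rpl22l1 was lost without IFE replicate 3, HF replicate 1 or HF replicate 2, at -0.49, -0.57 and -0.56. It was also lost with limma on either TPM scale and with the length trend removed. Rps27 averaged 3346 TPM, its p53-induced paralog Rps27l 117 TPM, and Rps27rt, a retrogene of Rps27, 229 TPM. Reads of Rps27 and Rps27rt may have been divided between them, so the values of Rps27rt are uncertain. Rpl36a and Rpl36al averaged 1186 and 484 TPM, Rpl7 and Rpl7l1 1656 and 61.4 TPM.

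Touchdome was then compared with HF, from which it differed in the gates on both SCA1 and tdTomato. The members leaned higher in Touchdome, by a median log2 fold change of 0.26, with 81 of 83 above 0, but few passed the test. Members higher were 4 of 83 (11.8% of all genes) and members lower 0 (12.8% of all genes), where DESeq2 gave 9 and 0 and an unadjusted p under 0.05 in edgeR gave 18 and 0. In 49 members all 3 Touchdome libraries were higher than all 3 HF libraries (21.2% of all genes). The 4 were Rplp0, with 0.65 ± 0.14 (SE, adjusted p = 0.00352, edgeR), Rpl36al with 0.44 ± 0.14 (adjusted p = 0.0330), Rps26 with 0.54 ± 0.17 (adjusted p = 0.0389) and Rplp1 with 0.45 ± 0.15 (adjusted p = 0.0459). Rps26 (ENSMUSG00000025362), which encodes a protein near the mRNA exit channel, stood at 440, 755 and 507 CPM in IFE, 544, 482 and 454 CPM in Touchdome and 356, 327 and 338 CPM among the HF libraries. Touchdome lay above HF in every library and overlapped IFE. The members with the lowest values were Rps27l, at -0.07 ± 0.22, with 24.3, 14.9 and 14.6 CPM in the Touchdome libraries and 17.5, 18.7 and 20.6 CPM in the HF libraries, and Rps27a, which encodes a fusion of ubiquitin and a small subunit protein, at 0.00 ± 0.15.

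The number of these calls varied with the libraries in the fit. Without IFE replicate 2, which is in neither group, 25 members were higher (13.7% of all genes), and with only Touchdome and HF in the fit 23 were higher (13.5%). Without IFE replicate 1 the count was 9 (11.5% of all genes). Without Touchdome replicate 1, HF replicate 1 or HF replicate 2 it was 1 (9.20%, 9.03% and 9.36% of all genes), and without Touchdome replicate 2 or HF replicate 3 it was 2 (9.27% and 9.25%). Rplp0 was called under all 18 alternative settings, and the other 3 were each lost in several, among them the fits without Touchdome replicate 1 and without each HF library. With the length trend removed, 2 members were called (12.4% of all genes), 56 of 83 members were above 0 and the median was 0.060.

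Touchdome and IFE, the populations of the same SCA1 gate, showed no member past the test: 0 were higher (1.22% of all genes) and 0 lower (0.0798% of all genes), and DESeq2 also gave 0 and 0. The median log2 fold change was -0.25, with 81 of 83 members below 0, and 19 members were lower and 0 higher at an unadjusted p under 0.05. The smallest adjusted p was 0.276, for Rpl34, a large subunit gene with 140.5, 140.9 and 138 CPM in Touchdome and 150, 205 and 193 CPM in IFE, a log2 fold change of -0.39 ± 0.14. Rps19 followed in p, at -0.43 ± 0.15 (adjusted p = 0.297). The members above 0 were Rpl7l1, at 0.11 ± 0.14 (adjusted p = 0.892), and Rps19bp1, at 0.03 ± 0.22 (adjusted p = 0.988). In Rpl3, Rpl9, Rpl34, Rplp0 and Rps3 all 3 Touchdome libraries were lower than all 3 IFE libraries, 5 of 83 against 6.27% of all genes. The median was -0.12 without IFE replicate 2 and -0.38 without IFE replicate 1.

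**Figure D4:**
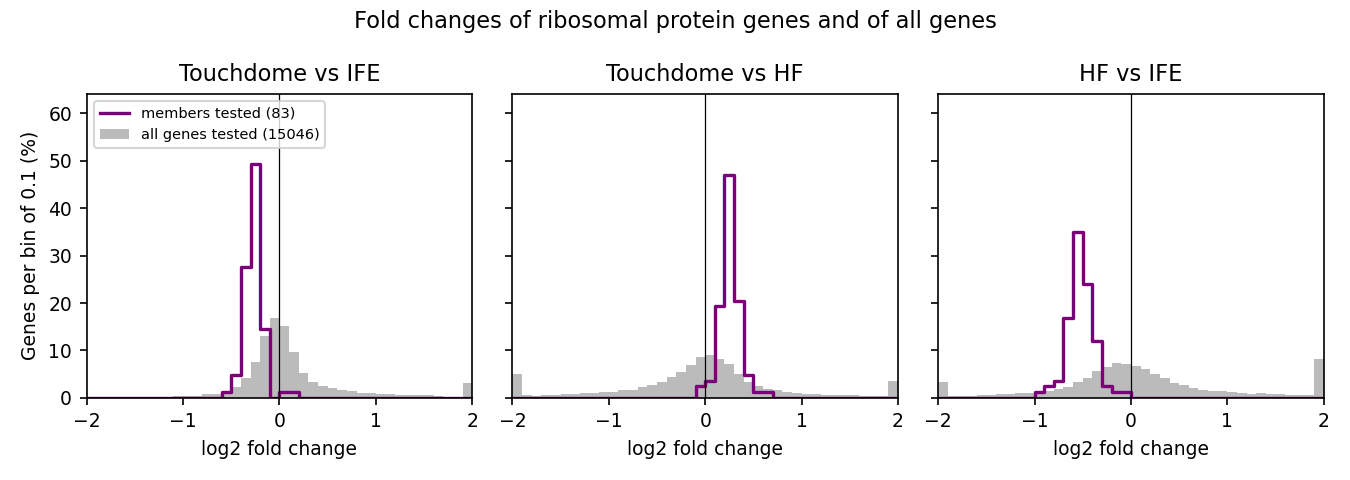
Distribution of log2 fold changes in bins of 0.1 (percent of genes per bin) for the 83 tested members (line) and all 15046 genes tested (grey) in the 3 comparisons; values beyond 2 in either direction are in the outermost bins. The members' medians are -0.25, 0.26 and -0.52, while all genes centre near 0.

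Group means followed the order IFE, Touchdome, HF from high to low in 79 of the 83 members and in 27.4% of all genes tested. Placing IFE at 0 and HF at 1 on the log2 scale, Touchdome had a median of 0.487 over the members. Each group enters 2 of the 3 comparisons, so their medians are not independent of each other, and IFE replicate 2 alone was the highest library for 81 members and IFE replicate 3 for the other two. Between HF and IFE, members with a run of at least 8 pyrimidines within 20 bases of an annotated start had a median log2 fold change of -0.51 (30 tested members). Members without such a run had -0.52 (33). The run could lie before or after that start, so the 2 classes need not separate members with and without a TOP mRNA. Members with and without the CGGAAG letters had medians of -0.52 (43) and -0.51 (20).

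Other genes of translation, in lists chosen with earlier results known, are given for HF against IFE beside the 16.0% of all genes called lower and the 17.1% called higher. With limma on log2(TPM + 1), where 8.04% of all genes were lower, fewer genes were called lower among elongation factors, initiation factors, other TOP mRNAs, mitochondrial ribosomal proteins and assembly genes. Fau and Rack1, ribosomal components outside the name rule, fell, by 0.46 ± 0.13 and 0.70 ± 0.13 (adjusted p = 0.0141 and 0.000837, edgeR), and Rack1 also passed with limma on log2(TPM + 1) and with the length trend removed. Fau did not, at -0.21 and -0.04, nor without HF replicate 2, at -0.40. Of 9 elongation factor genes 5 (Eef1b2, Eif5a, Eef1g, Eef1a1 and Eef2) fell and 0 rose, with a median of -0.42; with limma on log2(TPM + 1) only Eef1b2 and Eef1a1 passed. Among them Eef1b2, a subunit of the factor that recharges eEF1A with GTP, fell by 0.56 ± 0.13 (adjusted p = 0.00483), and Eif5a by 0.48 ± 0.12 (adjusted p = 0.00718). Of 30 initiation factor genes 10 fell and 0 rose, with a median of -0.29, and 8 of the 10 were subunits of eIF3. Of the 10, 3 (Eif6, Pabpc1 and Eif3f) passed with limma on log2(TPM + 1), 6 with the length trend removed (lost were Eif3d, Eif3i, Eif3k and Eif3l) and 5 without HF replicate 1. Eif6, which keeps the large subunit from joining the small one, stood at 145, 160 and 162 CPM in IFE, 131, 121 and 127 CPM in Touchdome and 81.5, 72.5 and 76.5 CPM in HF. The 3 groups did not overlap, and Eif6 was lower in HF than in IFE by -1.02 ± 0.10 (adjusted p = 9.52e-06) and higher in Touchdome than in HF by 0.72 ± 0.10 (adjusted p = 0.00024).

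Of 21 other genes with TOP mRNAs, a list that shares members with those above, 12 fell and 1 rose in HF against IFE, with a median of -0.48, and 6 of the 12 passed with limma on log2(TPM + 1). Pabpc1, the cytoplasmic poly(A)-binding protein gene, fell by 0.64 ± 0.14 (adjusted p = 0.00298, edgeR), and Nap1l1, a histone chaperone gene, rose by 0.47 ± 0.13 (adjusted p = 0.0129). Of 78 mitochondrial ribosomal protein genes, whose products serve the separate ribosome of the mitochondrion, 16 fell (20.5%, near the share of all genes) and 0 rose, with a median of -0.29. Of the 16, 1 (Mrpl57) passed with limma on log2(TPM + 1) and 1 (Mrpl19) with the length trend removed. With that trend removed the median was -0.04, beside 0.07 for all genes. Without IFE replicate 2, HF replicate 1, HF replicate 2 or HF replicate 3 the count was 1, 3, 4 and 6, and without IFE replicate 3 it was 10. Of 43 genes of ribosome assembly 4 (Utp4, Ltv1, Bop1 and Tsr1) fell, a share below that of all genes, and 0 rose. The median was -0.19, beside 0.00 for all genes. With limma on log2(TPM + 1) 0 of the 43 passed, and the median was 0.01, beside 0.19 for all genes. The count was 2 without HF replicate 2 or HF replicate 3. Utp4, of the complex that processes small subunit rRNA, fell by 0.70 ± 0.16 (adjusted p = 0.00475, edgeR). Of the 13 mRNAs encoded in mitochondrial DNA 0 passed, with a median of -0.19. Touchdome against HF gave 3 higher (Eif6, Pabpc1 and Eif2s1) and 0 lower of the initiation factors, 2 (Utp4 and Ltv1) and 0 of the assembly genes, and 1 (Mrps17) and 0 of the mitochondrial ribosomal proteins. Of all genes 11.8% were higher and 12.8% lower, and none of these lists exceeded those shares. Under the 18 alternative settings Eif6 always passed, while Pabpc1 and Utp4 were each lost in 7, Ltv1 in 6 and Mrps17 in 5. Against IFE, Touchdome had 0 called genes in each of these lists.

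**Figure D5:**
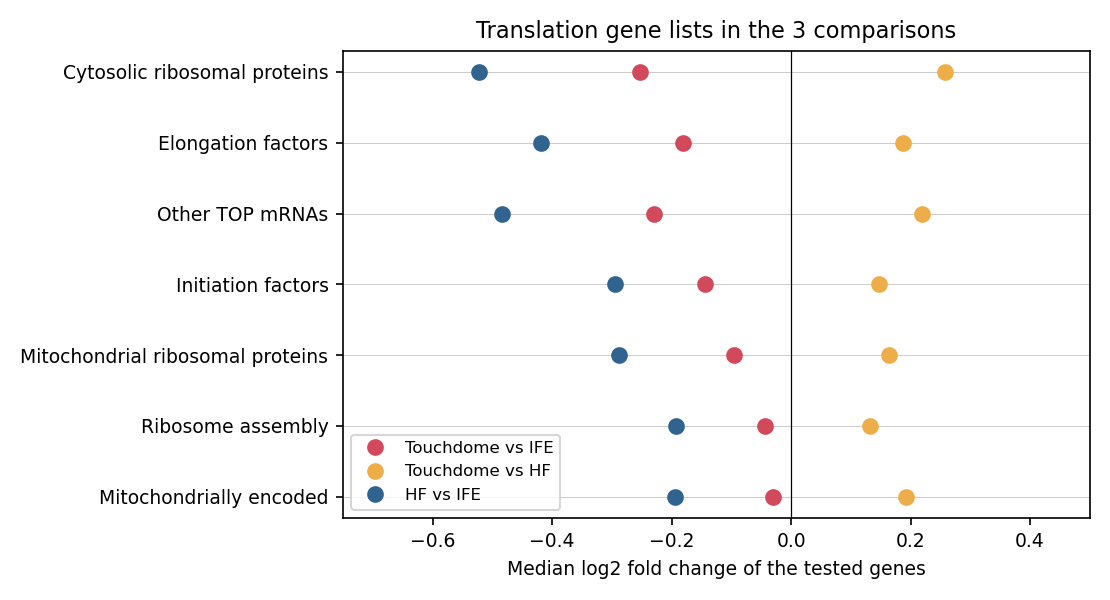
Median log2 fold change of the tested genes of 7 translation gene lists (one line each), with 1 point per comparison. For HF against IFE the cytosolic ribosomal proteins stand at -0.52, and ribosome assembly and mitochondrially encoded genes at -0.19; all Touchdome against HF medians are above 0.

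Regulators of ribosomal protein mRNAs were called in shares near those of all genes. Of 22 genes of mTOR and Myc signalling and of the transcription of these genes, 3 (Max, Mycn and Tsc1) rose and 4 (Tbpl1, Rheb, Mlst8 and Larp1) fell in HF against IFE, which is 13.6% and 18.2%, with a median of 0.09. With limma on log2(TPM + 1), where the median of all genes was 0.19, 5 were higher and 0 lower. With the length trend removed 3 were higher and 5 lower, the 4 named here among them. Without HF replicate 3, 1 was higher. Tbpl1, which encodes a relative of the TATA-binding protein, stood at 30.3, 43.4 and 33.7 CPM in IFE, 27.4, 27.8 and 26.4 CPM in Touchdome and 13.3, 14.3 and 14.6 CPM in HF, with no overlap between groups, and fell by 1.35 ± 0.15 in HF against IFE (adjusted p = 2.52e-05, edgeR). With limma on log2(TPM + 1) the difference was -0.31 (adjusted p = 0.280), and with the length trend removed it was -1.23 (edgeR adjusted p = 1.69e-05). Rheb, the GTPase that activates mTOR complex 1, fell by 0.56 ± 0.11 (adjusted p = 0.00177, edgeR), and Mlst8, a subunit of that complex, by 0.60 ± 0.15 (adjusted p = 0.00733). With limma on log2(TPM + 1) Rheb and Mlst8 stood at -0.16 and -0.15 and did not pass. With the length trend removed they passed, at -0.44 and -0.52. Max, the partner of Myc, rose by 0.51 ± 0.13 (adjusted p = 0.00876). Of 15 genes of the p53 pathway, which free ribosomal proteins can activate through Mdm2, 1 (Sesn1) rose and 5 (Sesn2, Aen, Cdkn1a, Trp53 and Tigar) fell in HF against IFE. That is 6.67% higher and 33.3% lower, beside 17.1% and 16.0% of all genes. Sesn2 fell by 1.10 ± 0.15 (adjusted p = 0.000102) and Sesn1 rose by 0.92 ± 0.12 (adjusted p = 6.66e-05), and Trp53 itself fell by 0.67 ± 0.12 (adjusted p = 0.000653). Cdkn1a, a cell cycle inhibitor and target of p53, was the 1 gene of the list called between Touchdome and IFE, at -0.52 ± 0.11 (adjusted p = 0.0361), and of the fits that left out a library it passed in that without IFE replicate 2. Of 9 genes of the S6 kinase name family, Rps6ka1 fell by 0.72 ± 0.10 (adjusted p = 0.000116) and Rps6ka2 rose by 1.32 ± 0.39 (adjusted p = 0.0208), the latter lost without IFE replicate 2, IFE replicate 3 or HF replicate 3, at 1.04, 1.31 and 0.93, and with limma on log2(TPM + 1).

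Proliferation genes differed between HF and IFE as well. Of 20 such genes 18 fell in HF against IFE, with a median of -1.51, and 0 rose. Touchdome had 16 higher and 0 lower against HF and 0 called against IFE, where the median was 0.00. Their summed level was 501 to 585 TPM in HF, 977 to 1132 TPM in IFE and 1084 to 1322 TPM in Touchdome, so Touchdome and IFE overlapped. Ccnb2, a mitotic cyclin gene, fell by 2.08 ± 0.13 in HF against IFE (adjusted p = 2.12e-07, edgeR). The part of cycling cells in the ribosomal protein values was not tested.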

How the data were processed

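Messenger RNA was measured in 9 libraries (Touchdome, IFE and HF, 3 each), prepared after poly(A) selection of 50 ng RNA and sequenced in paired 150 nt reads, per the labels' protocols. The deposited expected counts estimate reads per gene without scaling for depth, and 92.5% to 94.6% of each library's values were whole numbers. The TPM values deposited by the authors are scaled for length and carry no depth. The build mm39 was used with RSEM 1.3.3, STAR 2.7.9a and DESeq2 1.38.2, per the submitters' processing notes. What each tool did, the annotation and the strandedness were not given in the sources used here, so near-identical and overlapping genes are uncertain. Symbols and biotypes came from a GENCODE table (52081 identifiers matched), whose build differs, so gene coordinates are given only for RefSeq promoter entries (GRCm38.p6).

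Expected counts were rounded. filterByExpr of edgeR 4.0.16 (R 4.3.3; minimum count 10, minimum total 15) kept 15046 genes, scaled by TMM, and the robust quasi-likelihood test was fitted to the 9 libraries together, with Benjamini-Hochberg adjustment over all genes. CPM values use the TMM-scaled library size, and SE is the log2 fold change divided by the square root of its F statistic. Relative length is the count divided by TPM, with 1 as the median gene, and the length trend was a lowess curve (span 0.3) fitted on genes outside the set and used as an offset. Alternatives were DESeq2 1.42.0, RLE factors, scaling without the members, no filter, 2 groups in the fit, a replicate block, limma 3.58.1 on log2(TPM + 1) and log2(TPM + 0.1), the length trend removed, each library left out, and scaling to the ribosomal protein total, which was added later. Replicates differed by more than sampling noise (chi-square per degree of freedom 15.7 to 69.2).

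Same-numbered Touchdome and IFE libraries deviated together (r = 0.146, 0.173 and 0.203 over genes), each pair above the 0.1 set by rule. This pairing comes from the data and not from the labels. The main test left it out, so the edgeR p-values quoted are unpaired. Only the alternative with a replicate block took it up, with replicate terms for all 9 libraries, HF included. With HF, r was -0.03 to 0.07. Members, gene lists and tests were chosen with earlier results of these data known. The named genes are, per comparison, up to 6 called members in each direction with the smallest p (2 where none was called), the 3 members highest and lowest in TPM, members with loss-of-function phenotypes, paralogs and the stalk, Fau and Rack1, and up to 2 called genes of each other list per comparison; Mlst8, Max, Trp53, Nap1l1 and genes named only to spell out a count were named after their values were seen. Some genes that this rule takes are not reported here.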

Additional observations from a re-analysis of the deposited data

How the results depend on the processing

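In the comparison of HF with IFE, members lower, 69 in all, were 23 with limma on either TPM scale, 22 with the length trend removed and 38 to 79 with 1 library left out. The median of -0.52 was -0.18 with the length trend removed. Scaling to the ribosomal protein total, chosen after seeing the data, gave 1 higher and 1 lower with a median of 0.017, 0 members higher with a median of -0.015 for Touchdome against HF, and a median of 0.0069 for Touchdome against IFE, since this scaling centres the set by construction. In Touchdome against HF the 4 members higher were 9 with DESeq2, 7 with no filter, 23 with 2 groups in the fit, 2 with the length trend removed and 1 to 25 with 1 library left out, and the median of 0.26 was 0.060 with the length trend removed. The share of counts of 4.74%, 5.30% and 3.92% (Touchdome, IFE, HF) was 14.9%, 16.1% and 13.1% of the TPM total. The replicate block gave 67 members lower in HF against IFE, 3 higher in Touchdome against HF and 0 and 0 in Touchdome against IFE. For Touchdome against IFE it thus changed no member's call. The following signs reversed, all for genes that passed no test there. For HF against IFE with the length trend removed these were Rps15 (0.059), Rps19bp1 (0.19), Rpl7l1 (0.10), Rps27l (0.080), Rpl35a (0.043), Rpl38 (0.058) and Rpl22 (0.14). With limma on log2(TPM + 1) and log2(TPM + 0.1), Rps19bp1 reached 0.18 and 0.19 and Rpl7l1 0.12 and 0.12. With 1 library left out, Rps19bp1 ranged from -0.27 to 0.041 (above 0 without IFE replicate 2) and Rpl7l1 from -0.11 to 0.12. For Touchdome against HF, Rps27a stood at 0.0015 scaled without the members, 0.0021 with no filter, 0.0048 with 2 groups and -0.072 to 0.067 with 1 library left out, where Rps27l ranged from -0.34 to 0.061. For Touchdome against IFE, Rps19bp1 ranged from -0.12 to 0.20 with 1 library left out. Where not stated, the cause was not tested. Touchdome against IFE gave 0 members higher and 0 lower under each alternative, that without IFE replicate 2 included.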
